A study of Mus musculus with 6 samples.

Results

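Transcripts of 10 genes for surface receptors, signal transducers, transcription factors and enzymes that are used as markers of alternatively activated (M2) macrophages were examined in RAW 264.7 cells grown on zinc implant materials. The genes were chosen by name: Il4ra, Stat6, Klf4, Egr2, Clec7a, Clec10a, Mrc1, Msr1, Arg1 and Tgm2. All 10 were found among the 54532 genes of the deposited count table. RAW 264.7 is a mouse macrophage line from a tumour induced by a leukaemia virus, and it is a single line, so that animals or donors do not enter the comparisons. The cells had been cultured for 3 days on 1 of 3 zinc materials, all coated with calcium phosphate (CaP). CaP Zn0.8Mn0.1Li is zinc alloyed with both manganese and lithium, CaP Zn0.8Mn is zinc alloyed with manganese alone, and CaP Zn is zinc. Each material had 2 libraries of polyadenylated RNA, and none of the 6 libraries came from cells without a zinc material. The labels name no added cytokine. The study asked how these materials bear on macrophage polarization in a bone-forming setting.

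M2 macrophages are classically induced by interleukin 4 or interleukin 13, whose signal passes from the receptor chain encoded by Il4ra through JAK kinases to the transcription factor STAT6. STAT6, helped by factors such as KLF4 and EGR2, switches on genes for sugar-binding receptors (lectins), scavenger receptors, arginase 1 and transglutaminase 2. In tissue around an implant, macrophages of this kind are associated with clearance of debris and with repair.

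Library totals ran from 14944070 to 17709290 counts, and 13156 genes had enough counts to be tested. Levels per library are counts scaled to library size (CPM) with TMM factors, so that a floor of 3 counts lay at 0.161 to 0.198 CPM. CaP Zn0.8Mn replicate 1 stood apart: 7.88% of its counts fell on mitochondrial genes, where the other 5 libraries had 1.82% to 2.15%. Of the tested genes, 42% read higher there than in all of the other 5 libraries and 41.9% read lower than in all of them. Fold changes of the members that rest on this library are therefore given with and without it. The list medians given for CaP Zn0.8Mn over CaP Zn are treated in the same way. Of 12 macrophage marker genes, 11 were tested, and their summed level was 15789 and 16365 CPM on CaP Zn0.8Mn0.1Li, 10400 and 17209 CPM on CaP Zn0.8Mn and 11459 and 14756 CPM on CaP Zn. The remaining marker, Mertk, had at most 0.925 CPM. Lyz2 alone made up most of each sum, with 5861 CPM in CaP Zn0.8Mn replicate 1 and 9182 to 14549 CPM in the other 5 libraries. The markers did not move together, and Csf1r read 1598 CPM in that library against 319 to 374 CPM. No label says whether both libraries of one material are separate cultures, so the p-values cover the spread between libraries, which may be technical.

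None of the 9 members with enough counts passed the test between any pair of materials. Of the 9 tested members, 7 had their highest reading in CaP Zn0.8Mn replicate 1, where 42% of tested genes did, and so did the untested Mrc1. Clec7a was the most displaced, with 117 CPM there and 6.79 to 10.1 CPM in the other 5 libraries. Leaving that library out, the member closest to a difference between materials was Clec10a, higher on CaP Zn0.8Mn0.1Li than on CaP Zn in both libraries. Of all tested genes, 16.7% had both CaP Zn0.8Mn0.1Li libraries above both CaP Zn libraries. The marker most often used for M2 cells, Arg1, lay near the limit of detection in all 6.

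**Figure D1:**
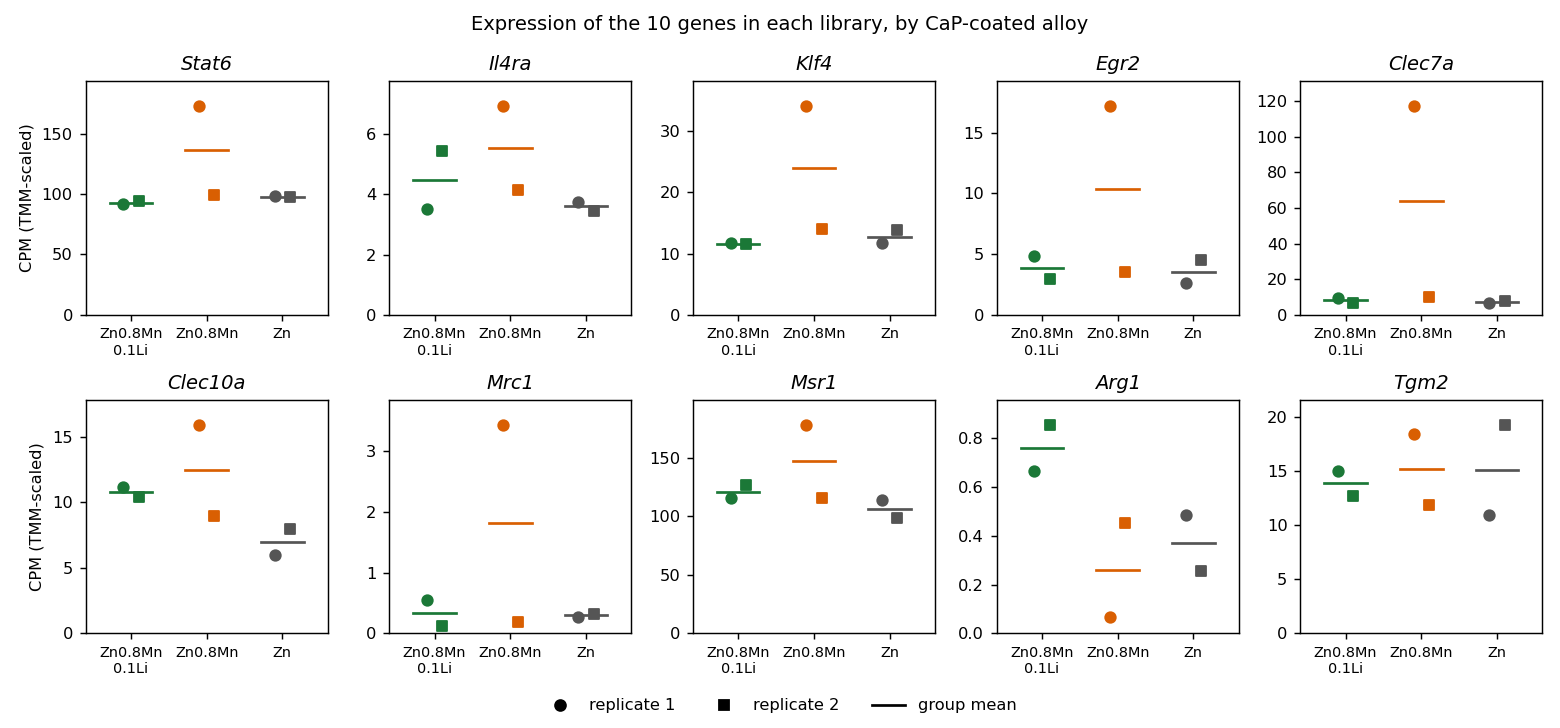
Level of each of the 10 members in CPM (linear axis, scaled for each member) on each material. Circles show replicate 1, squares replicate 2 and lines the group mean. Clec7a in CaP Zn0.8Mn replicate 1 stands at 117 CPM, against 6.79 to 10.1 CPM in the other 5 libraries.

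The members with the highest levels per length were Stat6 and Msr1. Levels of different genes were compared as the authors' deposited FPKM (fragments per kilobase of gene, scaled to library size), over the 5 libraries without CaP Zn0.8Mn replicate 1. Stat6 averaged 21.7 FPKM (20.7 to 22.5) and Msr1 17.8 (15.4 to 19.8), and these ranges did not overlap with each other or with that of Klf4 at 4.09 FPKM (3.74 to 4.58). Klf4, Clec7a at 3.08 FPKM, Clec10a at 3.05 FPKM and Tgm2 at 3.01 FPKM formed a middle group in which the range of each overlapped that of the next. Egr2 followed at 1.08 FPKM (0.751 to 1.41) and Il4ra at 0.671 FPKM (0.572 to 0.898), with overlapping ranges. Arg1 at 0.242 FPKM (0.114 to 0.381) and Mrc1 at 0.0452 FPKM (0.0190 to 0.0848) came last, each below its neighbour without overlap. In CaP Zn0.8Mn replicate 1 the order was another: Clec7a read 43.3 FPKM there, above Stat6 at 38.2 FPKM. With all 6 libraries, Il4ra and Arg1 were the only neighbours whose ranges did not overlap.

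**Figure D2:**
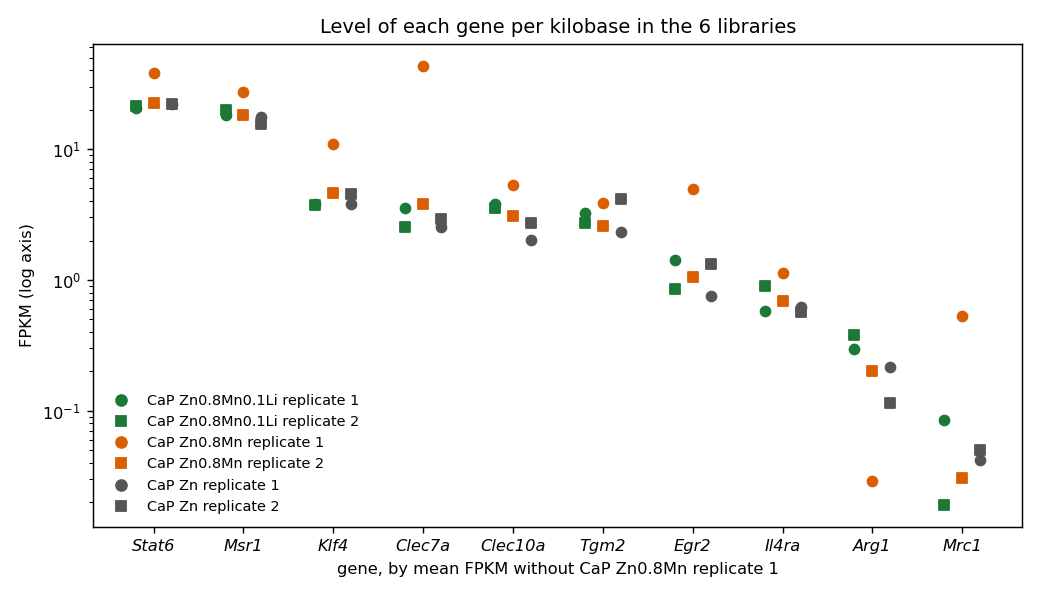
Level of the members per length, in the deposited FPKM (log axis), with 1 point per library and the members in order of their mean over the 5 libraries without CaP Zn0.8Mn replicate 1. Stat6 and Msr1 lie highest, at 20.7 to 22.5 and 15.4 to 19.8 FPKM in those 5 libraries, and Arg1 and Mrc1 lie lowest.

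Il4ra (ENSMUSG00000030748, chromosome 7: 125552120 to 125579474, plus strand), the receptor chain through which interleukin 4 and interleukin 13 signal, was low on every material. It read 3.50 and 5.44 CPM in replicates 1 and 2 on CaP Zn0.8Mn0.1Li, 6.94 and 4.14 CPM on CaP Zn0.8Mn and 3.76 and 3.45 CPM on CaP Zn. Both CaP Zn0.8Mn libraries lay above both CaP Zn libraries, and the CaP Zn0.8Mn0.1Li libraries spanned that gap. The log2 fold change was 0.62 (SE 0.41) for CaP Zn0.8Mn over CaP Zn and 0.31 (SE 0.41) for CaP Zn0.8Mn0.1Li over CaP Zn. The first of these was 0.19 (SE 0.34) without CaP Zn0.8Mn replicate 1.

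Stat6 (ENSMUSG00000002147, chromosome 10: 127642986 to 127660957, plus strand), the transcription factor downstream of that receptor, was the steadiest member in the 5 libraries other than CaP Zn0.8Mn replicate 1, where its highest reading was 1.08 times its lowest. It read 91.6 and 94.3 CPM on CaP Zn0.8Mn0.1Li, 173 and 99.3 CPM on CaP Zn0.8Mn and 98.4 and 97.5 CPM on CaP Zn. Both CaP Zn0.8Mn0.1Li readings were below both CaP Zn readings, by a log2 fold change of -0.075 (SE 0.29), or -0.075 (SE 0.081) without CaP Zn0.8Mn replicate 1. For CaP Zn0.8Mn over CaP Zn it was 0.47 (SE 0.29), and 0.021 (SE 0.099) without that library. The exons of Stat6 share 40 bases with Nab2 on the opposite strand, which had 210 to 335 counts, and whether the counting used strand is not given in the sources used here.

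Klf4 (ENSMUSG00000003032, chromosome 4: 55527143 to 55532466, minus strand) encodes a zinc-finger factor that cooperates with STAT6 in macrophages. It read 11.7 and 11.5 CPM on CaP Zn0.8Mn0.1Li, 34.1 and 14.0 CPM on CaP Zn0.8Mn and 11.7 and 13.8 CPM on CaP Zn. The 34.1 CPM of CaP Zn0.8Mn replicate 1 was 2.72 times the mean of the other 5 libraries, which lay within 1.22 times of each other. The log2 fold change for CaP Zn0.8Mn over CaP Zn was 0.92 (SE 0.44), and 0.14 (SE 0.20) without that library.

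Egr2 (ENSMUSG00000037868, chromosome 10: 67535475 to 67542188, plus strand), a zinc-finger factor of the early growth response family that is used as a marker of M2 cells, varied more. It read 4.83 and 2.93 CPM on CaP Zn0.8Mn0.1Li, 17.2 and 3.56 CPM on CaP Zn0.8Mn and 2.58 and 4.54 CPM on CaP Zn. All 3 materials overlapped, and CaP Zn0.8Mn replicate 1 was 4.66 times the mean of the others. For CaP Zn0.8Mn over CaP Zn the log2 fold change was 1.54 (SE 0.79), and 0.013 (SE 0.40) without that library. Its relative Egr3, named here after its values were seen, was also high in that library, with 17.8 CPM against 0.320 to 0.970 CPM in the other 5.

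Clec7a (ENSMUSG00000079293, chromosome 6: 129461591 to 129472779, minus strand) encodes dectin-1, the receptor for fungal beta-glucan. It read 9.42 and 6.79 CPM on CaP Zn0.8Mn0.1Li, 117 and 10.1 CPM on CaP Zn0.8Mn and 6.83 and 7.80 CPM on CaP Zn. CaP Zn0.8Mn replicate 1 was 14.3 times the mean of the other 5 libraries, and its log2 ratio lay above that of 99.9% of the tested genes. The mean on CaP Zn0.8Mn, 63.7 ± 75.8 CPM, therefore had an SD above the mean itself, against 8.10 ± 1.86 CPM on CaP Zn0.8Mn0.1Li and 7.32 ± 0.690 CPM on CaP Zn (SD, n = 2 each). For CaP Zn0.8Mn over CaP Zn the log2 fold change was 3.12 (SE 1.08), with an unadjusted p of 0.0307 and an adjusted p of 0.773 in edgeR's quasi-likelihood test. The value for CaP Zn0.8Mn0.1Li over CaP Zn0.8Mn was -2.97 (SE 1.07), with an unadjusted p of 0.0356 and an adjusted p of 0.680. With CaP Zn0.8Mn replicate 1 left out these were 0.47 (SE 0.25) and -0.31 (SE 0.25).

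Clec7a and Klf4 were 2 of the 3 tested members more than 2-fold higher in CaP Zn0.8Mn replicate 1, and the bases before their start sites are shown so that the motifs named below can be seen in place. Of the 10 members, 6 had a promoter in the RefSeq table (build GRCm38.p6), with 11 windows of 300 bases in all. The 250 bases before the start, 5′ to 3′ along the gene, lie at chr6:129472780-129473029 (minus strand) for the first of the Clec7a starts and at chr4:55532476-55532725 (minus strand) for Klf4. Capitals mark the motif matches.
Clec7a: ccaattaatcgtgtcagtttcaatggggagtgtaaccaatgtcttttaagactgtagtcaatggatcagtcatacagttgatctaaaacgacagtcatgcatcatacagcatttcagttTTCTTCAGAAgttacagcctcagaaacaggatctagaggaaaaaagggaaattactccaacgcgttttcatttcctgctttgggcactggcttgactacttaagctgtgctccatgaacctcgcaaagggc
Klf4: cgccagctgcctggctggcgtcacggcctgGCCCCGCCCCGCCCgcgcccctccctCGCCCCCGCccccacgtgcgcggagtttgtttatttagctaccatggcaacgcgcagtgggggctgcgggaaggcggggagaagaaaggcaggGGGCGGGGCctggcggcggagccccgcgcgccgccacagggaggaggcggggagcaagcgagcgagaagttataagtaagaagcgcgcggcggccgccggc
The Clec7a capitals are a STAT6-type match, TTC and GAA with 4 bases between them, that begins 131 bases before the start. A match of this kind is in 6.94% of the 32817 promoter windows, and among the members it was found only for Clec7a, in both of its windows, which overlap. The Klf4 capitals hold an EGR-type match, GCGGGGGCG, and 3 KLF or SP-type matches, GGGCGGGGC, of which the first 2 overlap each other, counting both strands. Those motifs are in 2.91% and 11% of all windows. Il4ra had 1 KLF or SP-type match. No member window held GAGGAAGT, the PU.1-type motif found in 3.20% of windows, or TTC and GAA with 3 bases between them, found in 8.29%. The letters TATAAA, in 13.6% of windows, occurred for Clec7a, after the first start. Klf4 had the most GC-rich window of the members (74.3%) and Clec7a the least (42.0%), against a median of 52.7% over all windows. A match describes the letters of the window and shows no binding.

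Clec10a (ENSMUSG00000000318, chromosome 11: 70156197 to 70170834, plus strand) encodes a lectin for galactose-type sugars, also known as MGL1 or CD301a. It read 11.2 and 10.4 CPM on CaP Zn0.8Mn0.1Li, 15.9 and 8.98 CPM on CaP Zn0.8Mn and 5.97 and 7.93 CPM on CaP Zn. All 4 libraries from the alloys with manganese lay above both CaP Zn libraries, an order that 3.54% of tested genes had. Means were 10.8 ± 0.548 CPM on CaP Zn0.8Mn0.1Li, 12.5 ± 4.91 CPM on CaP Zn0.8Mn and 6.95 ± 1.39 CPM on CaP Zn (SD, n = 2 each). The log2 fold change over CaP Zn was 0.63 (SE 0.36) for CaP Zn0.8Mn0.1Li and 0.84 (SE 0.36) for CaP Zn0.8Mn. In the fit without CaP Zn0.8Mn replicate 1 these were 0.64 (SE 0.20), with an unadjusted p of 0.00515 and an adjusted p of 0.692 in edgeR's test, and 0.38 (SE 0.24). The close relative Mgl2, whose reads could be confused with those of Clec10a, read only 0.198 to 1.10 CPM in the 6 libraries.

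Mrc1 (ENSMUSG00000026712, chromosome 2: 14229392 to 14332057, plus strand), the mannose receptor CD206, had 9 and 2 counts on CaP Zn0.8Mn0.1Li, 52 and 3 counts on CaP Zn0.8Mn and 5 and 5 counts on CaP Zn. It was too low for the test. The 52 counts of CaP Zn0.8Mn replicate 1 correspond to 3.44 CPM, with an exact Clopper-Pearson 95% interval of 2.57 to 4.51 CPM. The other 5 libraries read 0.122 to 0.543 CPM, and the highest upper bound among them was 1.03 CPM. These intervals cover counting error only.

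Msr1 (ENSMUSG00000025044, chromosome 8: 39581685 to 39642673, minus strand), the class A scavenger receptor for modified lipoproteins, read 115 and 127 CPM on CaP Zn0.8Mn0.1Li, 178 and 116 CPM on CaP Zn0.8Mn and 113 and 98.6 CPM on CaP Zn. As with Clec10a, the 4 libraries from alloys with manganese all lay above the CaP Zn pair, although by a small margin. They were the 2 of 9 tested members with this order, beside 3.54% of tested genes, and 0 of 9 had the opposite one, beside 3.25%. Without CaP Zn0.8Mn replicate 1 the order had to hold for these 2 members, which adds no support, and no further member joined them. Of all tested genes 10.7% then had it, and the opposite was seen for 0 members, beside 10.6% of genes. The log2 fold change for CaP Zn0.8Mn0.1Li over CaP Zn was 0.19 (SE 0.25), and 0.19 (SE 0.090, unadjusted p = 0.0518 in edgeR) without CaP Zn0.8Mn replicate 1. For CaP Zn0.8Mn over CaP Zn it was 0.47 (SE 0.25), and 0.13 (SE 0.11) without that library.

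Arg1 (ENSMUSG00000019987, chromosome 10: 24915221 to 24927484, minus strand), the enzyme that turns arginine into ornithine and urea, had 11 and 14 counts on CaP Zn0.8Mn0.1Li, 1 and 7 counts on CaP Zn0.8Mn and 9 and 4 counts on CaP Zn. These are 0.664 and 0.856 CPM on CaP Zn0.8Mn0.1Li, 0.0661 and 0.452 CPM on CaP Zn0.8Mn and 0.484 and 0.256 CPM on CaP Zn. It passed the filter on low counts only through the CaP Zn0.8Mn0.1Li libraries, the only libraries with at least 10 counts, so that its log2 fold changes of 1.01 (SE 0.79) over CaP Zn and 1.52 (SE 0.84) over CaP Zn0.8Mn, the second of which was 0.74 (SE 0.76) without CaP Zn0.8Mn replicate 1, had to be positive and give no support to a difference. Its log2 fold change for CaP Zn0.8Mn over CaP Zn was -0.51 (SE 0.88), and 0.26 (SE 0.83) without CaP Zn0.8Mn replicate 1. The exact 95% intervals of the 6 libraries, 0.332 to 1.19 and 0.468 to 1.44 CPM on CaP Zn0.8Mn0.1Li, 0.00167 to 0.368 and 0.182 to 0.932 CPM on CaP Zn0.8Mn and 0.221 to 0.919 and 0.0697 to 0.655 CPM on CaP Zn, overlapped for every pair of libraries except CaP Zn0.8Mn0.1Li replicate 2 and CaP Zn0.8Mn replicate 1. Arg1 was the only member whose lowest reading was in CaP Zn0.8Mn replicate 1.

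Tgm2 (ENSMUSG00000037820, chromosome 2: 158116402 to 158146436, minus strand) encodes transglutaminase 2, a protein cross-linking enzyme used as an M2 marker in mouse and human cells. It read 15 and 12.7 CPM on CaP Zn0.8Mn0.1Li, 18.4 and 11.9 CPM on CaP Zn0.8Mn and 10.9 and 19.3 CPM on CaP Zn. The CaP Zn pair spanned the whole range, and Tgm2 was the only member whose reading in CaP Zn0.8Mn replicate 1 lay within the range of the other 5 libraries. The log2 fold change for CaP Zn0.8Mn over CaP Zn was 0.0059 (SE 0.37), but -0.011 with library totals only, -0.040 with no filter on low counts and -0.34 (SE 0.29) without that library. Its exons share 370 bases with Rprd1b on the opposite strand, which had 504 to 742 counts.

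Across the list, 0 of 9 tested members passed an adjusted p of 0.05 in edgeR for CaP Zn0.8Mn0.1Li over CaP Zn, where 0% of all tested genes did, and the same held for CaP Zn0.8Mn over CaP Zn (0%) and for CaP Zn0.8Mn0.1Li over CaP Zn0.8Mn (0%). The F test over the 3 materials also called 0 members and 0% of genes, and 0 members and 0.0076% of genes without CaP Zn0.8Mn replicate 1. Adjusted p was 1.00 for every member in the first comparison, 0.773 to 0.995 in the second and 0.680 to 0.863 in the third. At an unadjusted p under 0.05 edgeR had 0 members and 0.22% of genes for CaP Zn0.8Mn0.1Li over CaP Zn, 1 member and 1.57% for CaP Zn0.8Mn over CaP Zn, 1 member and 2.4% for CaP Zn0.8Mn0.1Li over CaP Zn0.8Mn, and 1 member and 1.06% in the F test, in each case Clec7a. DESeq2 and limma-voom also called 0 members in each. On the 5 libraries without CaP Zn0.8Mn replicate 1, edgeR again called 0 members, with 0% of genes called for CaP Zn0.8Mn0.1Li over CaP Zn and 0.0152% in each of the other comparisons. At an unadjusted p under 0.05 it then had 1 member (Clec10a) and 5.02% of genes for CaP Zn0.8Mn0.1Li over CaP Zn, 0 members and 4.33% for CaP Zn0.8Mn over CaP Zn, 0 members and 3.16% for CaP Zn0.8Mn0.1Li over CaP Zn0.8Mn, and 1 member and 4.07% in the F test. DESeq2 and limma-voom on those 5 libraries called 0 members in each comparison too.

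**Figure D3:**
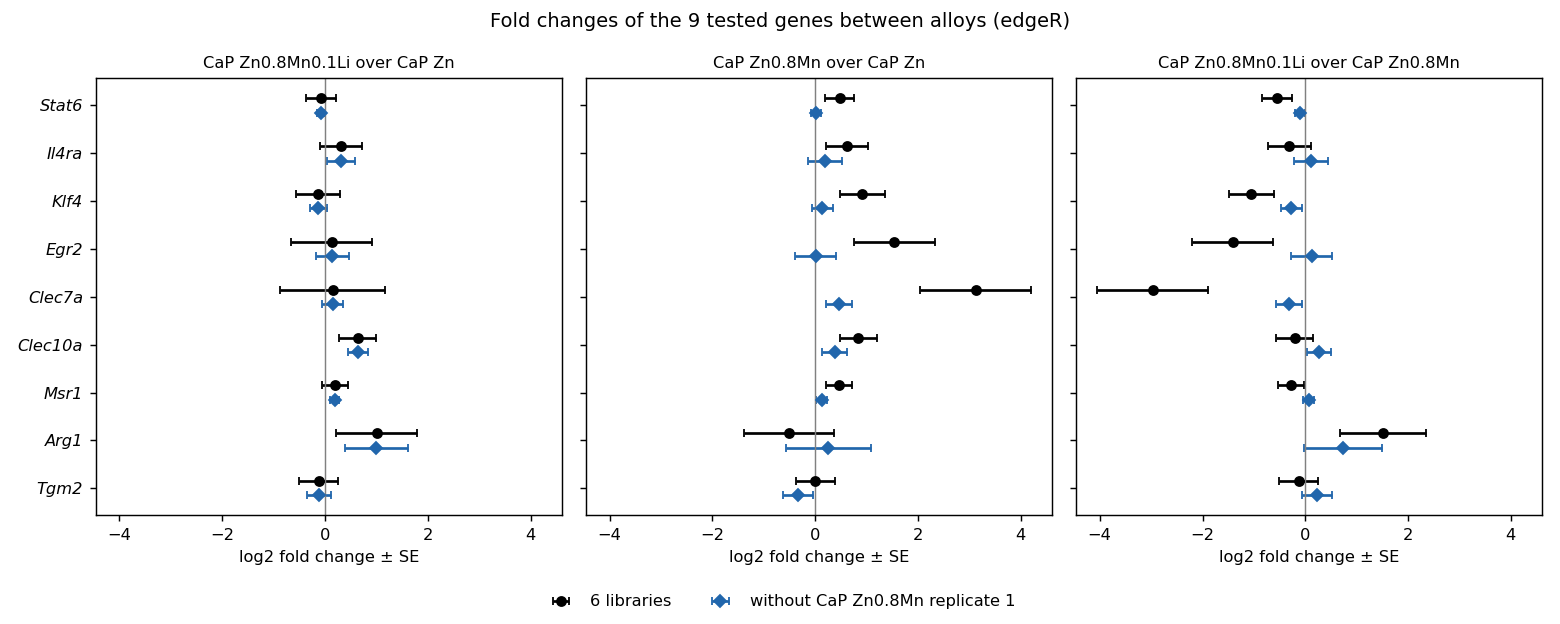
Log2 fold change of the 9 tested members in the 3 comparisons of materials, with bars of 1 standard error, from all 6 libraries and from the 5 without CaP Zn0.8Mn replicate 1. Clec7a moves from 3.12 to 0.47 for CaP Zn0.8Mn over CaP Zn when that library is left out.

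For CaP Zn0.8Mn0.1Li over CaP Zn, the members' median log2 fold change was 0.15, with 6 of 9 above 0, beside 0.000047 and 50% over all tested genes. The 6 include Arg1, whose direction its filter fixed. Both libraries of CaP Zn0.8Mn0.1Li lay above both of CaP Zn for 3 of 9 members (Clec10a, Msr1 and Arg1, the last by way of its filter), where 16.7% of genes did so, and below them for 1 (Stat6), where 16.8% did. For CaP Zn0.8Mn over CaP Zn, the members' median was 0.62, and 0.14 without CaP Zn0.8Mn replicate 1, beside 0.0048 and -0.0084 over all genes. Of the 9 members, 8 had a log2 fold change above 0, where 50.5% of genes did, and 8 did so without that library, where 48.2% did. These were not the same 8, since Arg1 went from -0.51 to 0.26 and Tgm2 from 0.0059 to -0.34. Without that library, only Clec10a, Clec7a and Msr1 of those above 0 had a value larger than its SE. The libraries did not overlap and CaP Zn0.8Mn was higher for 6 members (Clec10a, Clec7a, Klf4, Il4ra, Stat6 and Msr1), where 12.5% of genes were, and lower for 0, where 12.8% were. Replicate 2 alone had to lie above both CaP Zn libraries for the same 6 members, which adds no support, and it did so for no further member. Of all tested genes 32% had this order. It lay below both for 0 members, where 32.8% of genes did. These are descriptions of the list, and the 2 comparisons share the CaP Zn libraries. In the comparison of CaP Zn0.8Mn0.1Li over CaP Zn0.8Mn, 1 member was above 0 (49.9% of genes) and the median was -0.31. CaP Zn0.8Mn0.1Li was lower without overlap for 3 members (Clec7a, Klf4 and Stat6), where 17.5% of genes were, and higher for 1, where 17.1% were. The 1 member above 0, which was also the 1 higher without overlap, was Arg1, whose direction its filter fixed. Against replicate 2 alone, CaP Zn0.8Mn0.1Li had to be lower without overlap for the same 3 members, and it was so for no further member, where 34.4% of genes were. It was higher for Clec10a, Tgm2 and Arg1, the last again by way of its filter, where 33.5% of genes were. Leaving out CaP Zn0.8Mn replicate 1, 6 were above 0 (49.6%), Arg1 again among them by way of its filter, and the median was 0.11, beside -0.0015 over all genes. Clec10a, Egr2, Il4ra, Tgm2 and Msr1 turned from below to above 0. Clec10a went from -0.21 to 0.26, Egr2 from -1.41 (SE 0.79) to 0.13 and Il4ra from -0.31 to 0.11. Tgm2 went from -0.13 to 0.22 and Msr1 from -0.28 to 0.064. Klf4 stayed below 0, with -1.05 (SE 0.44) against -0.27 (SE 0.20), and so did Stat6, with -0.55 (SE 0.29) against -0.096. For CaP Zn0.8Mn0.1Li over CaP Zn, the values not given so far were 0.15 (SE 1.03) for Clec7a, 0.13 (SE 0.79) for Egr2, -0.13 (SE 0.44) for Klf4 and -0.12 (SE 0.38) for Tgm2, each smaller than its SE.

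CaP Zn0.8Mn replicate 1 read above all of the other 5 libraries for 7 of the 9 tested members (Clec7a, Egr2, Klf4, Stat6, Clec10a, Il4ra and Msr1), where 42% of tested genes did, and for the untested Mrc1. It was more than 2-fold above their mean on the log scale for 3 of 9 (Clec7a, Egr2 and Klf4), where 13.3% of genes were, and more than 2-fold below it for 0 of 9, where 14.6% were. As log2 ratios of CPM with 0.5 added, Clec7a stood at 3.78, Egr2 at 2.11, Klf4 at 1.41, Stat6 at 0.84, Clec10a at 0.84, Il4ra at 0.72, Msr1 at 0.65, Tgm2 at 0.42 and Arg1 at -0.85. The members' median was 0.84, beside 0.0061 over all tested genes. In the same library the log2 ratio was higher for longer genes, with a Spearman rho of 0.37 over the 13156 tested genes. The other 5 had -0.157 to -0.355, but each was set against a mean that holds CaP Zn0.8Mn replicate 1. Their negative values therefore cannot show a length trend of their own. Genes are not independent replicates. The part of gene length, of the mitochondrial share and of depth in these readings was not tested.

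**Figure D4:**
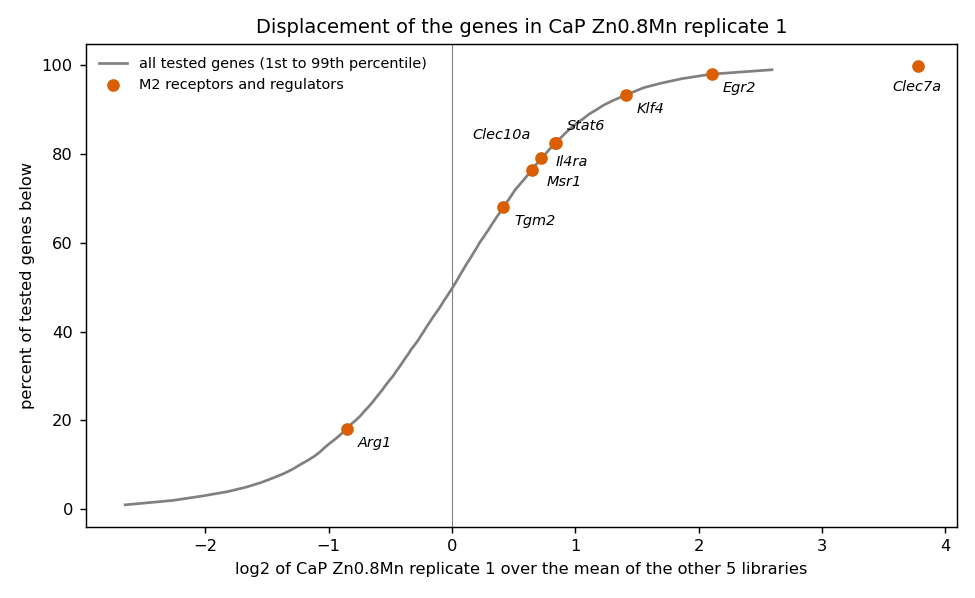
Share of the 13156 tested genes that lie below a given log2 ratio of CaP Zn0.8Mn replicate 1 to the mean of the other 5 libraries (CPM with 0.5 added), with the 9 tested members marked. Clec7a, at 3.78, lies above 99.9% of genes and Arg1, at -0.85, above 18.2%.

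The 2 CaP Zn0.8Mn libraries thus gave different answers when each stood alone for its material. With replicate 2 alone, no member passed the test against either other material, as given above. With replicate 1 alone, 7 of 9 members passed it against CaP Zn, all higher, led by Clec7a with a log2 fold change of 4.0, Egr2 with 2.28 and Klf4 with 1.41. In that fit 59.3% of all tested genes passed, beside 7 of 9 members. Against CaP Zn0.8Mn, CaP Zn0.8Mn0.1Li then had 6 members lower, where 61.5% of genes passed in either direction. Arg1 passed too, as higher, but its direction was fixed by its filter and it had 1 count in that lone library, so its call gives no support to a difference. The F test over the 3 materials called 7 members and 57.8% of genes. The lone sample is assumed there to vary as little as the other groups do.

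Markers of other cell types were looked at beside these readings, since bulk RNA cannot tell fewer cells of a type from less RNA per cell. The 7 lymphocyte markers summed to 0.0604 and 0.183 CPM on CaP Zn0.8Mn0.1Li, 0.198 and 0 CPM on CaP Zn0.8Mn and 0.0538 and 0.128 CPM on CaP Zn. The 10 stromal and osteoblast markers summed to 17.4 and 17.0 CPM on CaP Zn0.8Mn0.1Li, 7.53 and 13.6 CPM on CaP Zn0.8Mn and 13.7 and 15.1 CPM on CaP Zn. Nearly all of this was Runx2, a transcription factor of osteoblasts, at 7.14 to 17.1 CPM. Col1a1, Sp7, Bglap and Alpl had at most 5 counts in any library, and Col1a2, Col3a1, Pdgfra, Dcn and Lum were at 0 in all 6. The 9 mast cell and granulocyte markers summed to 0.330 to 2.23 CPM. The 8 dendritic cell markers summed to 8.87 and 4.77 CPM on CaP Zn0.8Mn0.1Li, 21.7 and 5.88 CPM on CaP Zn0.8Mn and 3.01 and 7.55 CPM on CaP Zn. In CaP Zn0.8Mn replicate 1, Itgax, which macrophages also express, made up 17.5 CPM of this, against 1.88 to 5.74 CPM in the other 5. Clec9a had 10 counts there and 0 to 3 in the others, and Xcr1 had 9 counts there and 0 to 1 in the others. Zbtb46 read 1.08 to 2.91 CPM in the 6 libraries, Ccr7 had at most 2 counts, Flt3 at most 1, and Siglech and Cd209a were at 0 in all 6. The 5 endothelial markers summed to 1.75 and 2.45 CPM on CaP Zn0.8Mn0.1Li, 13.7 and 2.07 CPM on CaP Zn0.8Mn and 2.10 and 2.05 CPM on CaP Zn, with Vwf at 13.5 CPM in CaP Zn0.8Mn replicate 1 and Cdh5 and Tek at 0 in all 6. The 9 osteoclast markers summed to 363 and 325 CPM on CaP Zn0.8Mn0.1Li, 230 and 293 CPM on CaP Zn0.8Mn and 253 and 339 CPM on CaP Zn. They did not move together in CaP Zn0.8Mn replicate 1. Acp5, Mmp9, Ctsk and Oscar were lowest there, while Dcstamp, Ocstamp, Nfatc1 and Atp6v0d2 were highest. Acp5 read 6.01 CPM there and 36.8 to 52.1 CPM in the other 5, and Dcstamp 26.6 and 5.44 to 8.06 CPM. The part of other cell types in the members' readings was not tested.

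The rest of the pathway was followed through lists of related genes, in which 0 genes passed the test in any comparison with all 6 libraries or without CaP Zn0.8Mn replicate 1. For interleukin 4 and interleukin 13 signalling, 20 of 23 genes were tested. Their median log2 fold change was -0.035 for CaP Zn0.8Mn0.1Li over CaP Zn and 0.062 for CaP Zn0.8Mn over CaP Zn, the second of which was 0.0095 without CaP Zn0.8Mn replicate 1. The 3 most abundant were Ptpn6, a phosphatase that restrains cytokine receptors, at 392 to 499 CPM, the adaptor Grb2 at 122 to 208 CPM and the kinase Jak1 at 159 to 208 CPM. The insulin receptor substrates Irs1 and Irs2, which link the receptor to PI3 kinase, had 0 counts in all 6 libraries. Il13ra1, a partner chain of Il4ra, read 124 CPM in CaP Zn0.8Mn replicate 1 and 48.1 to 60.0 CPM in the others. These 3 genes were named after their values were seen.

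Of 28 other genes induced by interleukin 4 or used as M2 markers, 14 were tested, with a median of 0.18 for CaP Zn0.8Mn0.1Li over CaP Zn and 0.16 for CaP Zn0.8Mn over CaP Zn, or 0.22 without its replicate 1. Their most abundant genes were the lipid receptor Cd36, the growth factor Tgfb1 at 142 to 235 CPM and the vessel growth factor Vegfa at 43.7 to 84.6 CPM. Cd36 read 223 and 230 CPM on CaP Zn0.8Mn0.1Li, 349 and 248 CPM on CaP Zn0.8Mn and 194 and 180 CPM on CaP Zn. All 4 libraries from the alloys with manganese lay above both CaP Zn libraries, as 3.54% of tested genes did. Its log2 fold change for CaP Zn0.8Mn0.1Li over CaP Zn was 0.28 (SE 0.22). Chil3 and Retnla, the classical secreted M2 markers of mouse macrophages, and Cd163, a scavenger receptor for haemoglobin, had 0 counts in all 6 libraries and were named after their values were seen. Igf1, a growth factor likewise named afterwards, stood at 150 CPM in CaP Zn0.8Mn replicate 1 and at 16.8 to 26.5 CPM in the other 5.

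Among 25 further lectin and scavenger receptor genes, 17 were tested, with medians of 0.098 for CaP Zn0.8Mn0.1Li over CaP Zn and 0.14 for CaP Zn0.8Mn over CaP Zn, or 0.12 without its replicate 1. The most abundant were the lysosomal glycoprotein Cd68 at 388 to 578 CPM, the lipoprotein receptor Scarb1 at 132 to 244 CPM and the lectin Clec4d. Clec4d, like Clec7a a C-type lectin of myeloid cells, was low where Clec7a was high, in CaP Zn0.8Mn replicate 1, with 45.5 CPM against 173 to 207 CPM in the other 5 libraries. Colec12, a scavenger receptor with a lectin domain that was named after its values were seen, read 316 CPM there and 74.6 to 87.5 CPM elsewhere. The 12 signalling partners of dectin-1 and related lectins were all tested, and their medians were 0.00034 for CaP Zn0.8Mn0.1Li over CaP Zn, 0.22 for CaP Zn0.8Mn over CaP Zn and -0.039 for CaP Zn0.8Mn over CaP Zn without its replicate 1. The most abundant of them were the kinase Prkcd at 135 to 220 CPM, the phospholipase Plcg2 at 108 to 171 CPM and the tetraspanin Cd37 at 81.9 to 124 CPM.

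Genes of arginine and polyamine metabolism surround Arg1, and 17 of 18 were tested. Odc1, which makes putrescine from ornithine, read 1218 and 1214 CPM on CaP Zn0.8Mn0.1Li, 314 and 1309 CPM on CaP Zn0.8Mn and 981 and 1069.6 CPM on CaP Zn. Oaz1, the antizyme that restrains Odc1, and Sat1, a polyamine acetyltransferase, were the next most abundant, and both were lowest in CaP Zn0.8Mn replicate 1. The list's median was 0.044 for CaP Zn0.8Mn0.1Li over CaP Zn, -0.13 for CaP Zn0.8Mn over CaP Zn and 0.058 for the same comparison without that library. Of 15 relatives and co-regulators of Egr2 and Klf4, 13 were tested, with medians of -0.014 for CaP Zn0.8Mn0.1Li over CaP Zn and 0.027 for CaP Zn0.8Mn over CaP Zn. The second median turned to -0.085 without CaP Zn0.8Mn replicate 1, with 4 of 13 genes above 0 in place of 7. The zinc-finger factors Klf6 at 155 to 200 CPM and Klf10 at 46.5 to 99.4 CPM and the EGR corepressor Nab1 at 61.6 to 113 CPM were the most abundant.

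For contrast, 15 of 18 inflammatory (M1) genes were tested, with medians of 0.15 for CaP Zn0.8Mn0.1Li over CaP Zn and -0.46 for CaP Zn0.8Mn over CaP Zn, or 0.11 without CaP Zn0.8Mn replicate 1. In that library Clec7a, Egr2 and Klf4 read high while the abundant M1 genes Ptgs2, which encodes cyclooxygenase 2, the chemokine Cxcl2 and the cytokine Tnf read low. Ptgs2 read 22.1 CPM there and 141 to 163 CPM in the other 5, Cxcl2 5.15 and 127 to 174 CPM, and Tnf 14.0 and 112 to 154 CPM. Other genes of both kinds went the opposite way. The M1 genes Cd86, at 9.91 against 2.26 to 4.47 CPM, and Irf5, at 111 against 86.6 to 106 CPM, were highest there. Both were named after their values were seen. Of the M2 genes, Arg1 was lowest there. So were Tgfb1, at 142 against 182 to 235 CPM, and Vegfa, at 43.7 against 68.2 to 84.6 CPM. The macrophage list, with medians of 0.14 for CaP Zn0.8Mn0.1Li over CaP Zn and 0.47 for CaP Zn0.8Mn over CaP Zn (0.21 without CaP Zn0.8Mn replicate 1), was itself uneven in that library, with Csf1r, the receptor for the growth factor of macrophages, at 1598 CPM against 319 to 374 CPM and Lyz2, the macrophage lysozyme, at 5861 CPM against 9182 to 14549 CPM. Some genes stand in more than 1 list: Socs3 is in the interleukin 4 signalling and M1 lists, Nos2 in the arginine and M1 lists, Cd68 in the lectin and macrophage lists, Clec9a in the lectin and dendritic lists and Cd209a in the M2 marker and dendritic lists.

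**Figure D5:**
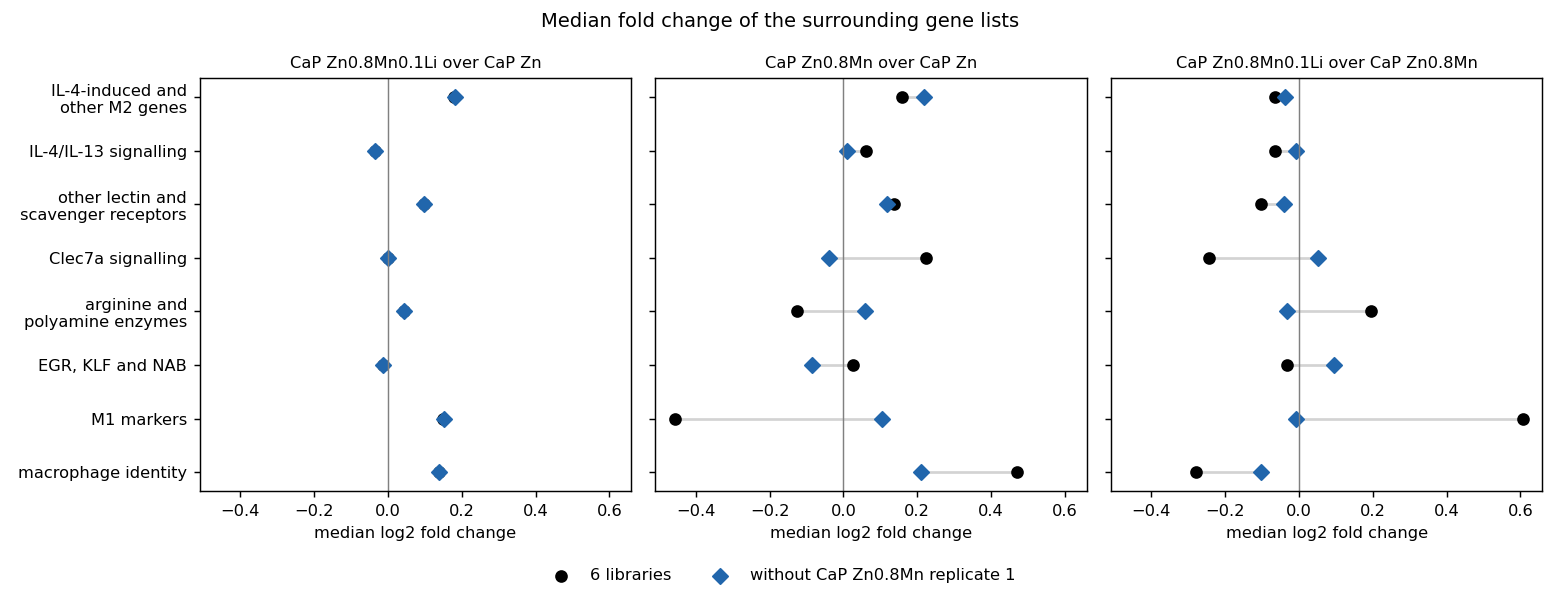
Median log2 fold change of each list of related genes in the 3 comparisons of materials, with all 6 libraries and without CaP Zn0.8Mn replicate 1, joined by a grey line. The M1 list moves from -0.46 to 0.11 for CaP Zn0.8Mn over CaP Zn.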

How the data were processed

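Polyadenylated RNA of RAW 264.7 cells was sequenced from 6 libraries, 2 per material, grouped by the treatment label with replicate numbers from the titles. The authors deposited whole-number read counts per gene with no normalization, and FPKM values in a table of their own, and the tools that made them are not named in the sources used here. The FPKM values the authors deposited imply library sizes 0.976 to 1.06 times the count totals. Build mm9 is named per the submitters' processing notes, but 53499 of 54409 gene identifiers in GENCODE M21 (98.3%), and all 10 members, have their GRCm38 start and end in the files, so coordinates are printed as GRCm38. The tables held 0 columns of other samples.

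The counts were tested with edgeR 4.0.16 in R 4.3.3 (robust quasi-likelihood, TMM, filterByExpr with a minimum count of 10, group means over all 6 libraries, 3 residual degrees of freedom). Two-sided p-values had Benjamini-Hochberg adjustment over 13156 genes and a threshold of 0.05. The fit without CaP Zn0.8Mn replicate 1 kept the same genes and had 2 residual degrees of freedom. SE is the log2 fold change divided by the root of the F statistic, and group values are means with SD. DESeq2 1.42.0, limma 3.58.1 and other normalizations and filters were alternatives. The scripts were tested on simulated data. Precision is set by 2 libraries per material, and floors and intervals cover counting error only.

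Counts of both libraries of a material were apart beyond counting error (chi-square per gene 6.15 for CaP Zn0.8Mn0.1Li, 278 for CaP Zn0.8Mn, 11.7 for CaP Zn). The members, the lists and the fit without CaP Zn0.8Mn replicate 1 were chosen with earlier results of these data known. The text names all 10 members, and of each list every gene called and the 3 tested genes of highest mean CPM. Other genes are named for the reason given beside them or as chosen after their values were seen. Promoter sequences are from RefSeq, and a comparison of the members' proteins was not made here.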

Additional observations from a re-analysis of the deposited data

How the results depend on the processing

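Members called numbered 0 in each comparison under every alternative other than leaving out a library. Counts of genes called, 0 in the edgeR fit, were 1 for CaP Zn0.8Mn over CaP Zn, 1 for CaP Zn0.8Mn0.1Li over CaP Zn0.8Mn and 1 in the F test over the 3 materials with no filter, and 1, 3 and 4 with DESeq2. Without CaP Zn0.8Mn replicate 1, DESeq2 called 12 genes for CaP Zn0.8Mn0.1Li over CaP Zn, 5 for CaP Zn0.8Mn over CaP Zn, 3 for CaP Zn0.8Mn0.1Li over CaP Zn0.8Mn and 10 in the F test, and limma-voom called 1 for CaP Zn0.8Mn over CaP Zn, 2 for CaP Zn0.8Mn0.1Li over CaP Zn0.8Mn and 1 in the F test. The cause was not tested. With each library left out in turn, genes called ranged from 0 to 7808 for CaP Zn0.8Mn over CaP Zn, 0 to 8096 for CaP Zn0.8Mn0.1Li over CaP Zn0.8Mn and 0 to 7603 in the F test, and members called from 0 to 7 in these 3; the upper values came from the fit without CaP Zn0.8Mn replicate 2. For CaP Zn0.8Mn0.1Li over CaP Zn they stayed at 0.

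Of the members' log2 fold changes under alternatives that keep or combine other choices, 313 kept direction and side of the threshold and 17 reversed; with 1 library left out, 134 did so, 14 reversed and 14 passed the threshold. For CaP Zn0.8Mn over CaP Zn, Tgm2 turned to -0.011 with library totals only and to -0.040 with no filter. Without CaP Zn0.8Mn replicate 1, DESeq2 and limma-voom gave Arg1 0.28 and 0.31 and Tgm2 -0.34 and -0.26 in that comparison. For CaP Zn0.8Mn0.1Li over CaP Zn0.8Mn they gave Clec10a 0.26 and 0.26, Egr2 0.13 and 0.084, Il4ra 0.11 and 0.075, Tgm2 0.22 and 0.22, and Msr1 0.064 and 0.063. Several members changed direction when 1 library was left out, and their values then ranged as follows. For CaP Zn0.8Mn0.1Li over CaP Zn, Egr2 ran from -0.29 to 0.59, Clec7a from -0.12 to 0.36, Il4ra from -0.047 to 0.58 and Tgm2 from -0.48 to 0.35. For CaP Zn0.8Mn over CaP Zn, Arg1 ran from -2.39 to 0.26 and Tgm2 from -0.35 to 0.47. For CaP Zn0.8Mn0.1Li over CaP Zn0.8Mn, Clec10a ran from -0.56 to 0.26, Egr2 from -2.14 to 0.13, Il4ra from -0.66 to 0.11, Tgm2 from -0.41 to 0.22 and Msr1 from -0.56 to 0.064, and the upper value of each of these 5 came without CaP Zn0.8Mn replicate 1.

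The labels do not say whether the replicate numbers shared by the materials mark pairs. The replicate 1 minus replicate 2 differences correlated at 0.29 between CaP Zn0.8Mn and CaP Zn. They correlated at -0.19 for CaP Zn0.8Mn0.1Li with CaP Zn and -0.098 for CaP Zn0.8Mn0.1Li with CaP Zn0.8Mn. These values cannot settle pairing, since those with CaP Zn0.8Mn rest on its replicate 1, which stood apart. With the replicate number as a block, edgeR called 0 genes in each comparison, and Egr2 for CaP Zn0.8Mn0.1Li over CaP Zn turned to -0.039. Depth limits Arg1 and Mrc1, at 1 to 14 and 2 to 52 counts per library.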
